A study of Mus musculus with 104 samples.

Results

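The long neural catenin genes Ctnna2 and Ctnnd2 were followed as sites of recurrent DNA breakage in mouse embryonic stem cells (ESC) and in neural progenitor cells differentiated from them in culture (NPC). The 2 regions were chr6:76500001-78000000 for Ctnna2 and chr15:30000001-31000000 for Ctnnd2 (mm9). They were chosen on measured junction counts in these same tables, so their levels by treatment and cell type are given as a description with no test. They held 896 and 1198 of 2018794 junctions in 24 pools, and 530589 junctions lay outside 5 Mb around the bait break of their own pool, on chromosomes 1 to 19 and X. Shares below are percentages of that latter number, pool by pool.

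High-throughput genome-wide translocation sequencing (HTGTS) cuts the genome at a fixed bait site and reads the junctions formed when the bait end joins a broken end elsewhere (the prey). The ESC were of 2 lines of the strain C57BL6/129SVE. All cells, controls included, were Xrcc4-/- p53-/-, that is, without an end-joining factor and without the p53 tumour suppressor. The bait break lay on chromosome 7, 12 or 15. Cells received aphidicolin (APH), which inhibits the replicative DNA polymerases, or the solvent DMSO. The 104 experiments came as 24 tables, here called pools, so that every combination of cell type, line, bait and treatment had 1. Nothing in the labels says that experiments came from separate cultures. The p-values therefore speak only of the scatter among pools, and that scatter may be technical.

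Ctnna2 encodes alpha-N-catenin, the neuronal alpha-catenin, which links the cadherin and beta-catenin complex to actin filaments. Ctnnd2 encodes delta-catenin, a neural relative of p120-catenin that binds the juxtamembrane part of cadherins. Both genes are long and expressed in the nervous system, and long neural genes are known as places where DNA breaks recur in neural progenitors when replication is slowed. RefSeq (GRCm38.p6) lists Ctnna2 on the minus strand and Ctnnd2 on the plus strand; an mm9 annotation was not used here, so junctions are not assigned to exons or introns.

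Reads from NPC under APH show what a junction is. Each is printed from the bait to the prey, with 40 bases of either side, and capitals mark the bases that the aligner gave to both the bait and the prey (the overlap, or microhomology, which may hold mismatches). They are the reads with the longest overlap of at most 8 bases for each region and bait. The 2 direct joints, shown for contrast, have no overlap, and there the capital marks the first prey base.
Ctnna2, bait 7, chr6:77716030, plus strand: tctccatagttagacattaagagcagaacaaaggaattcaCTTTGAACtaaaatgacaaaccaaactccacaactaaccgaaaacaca
Ctnna2, bait 12, chr6:77188886, minus strand: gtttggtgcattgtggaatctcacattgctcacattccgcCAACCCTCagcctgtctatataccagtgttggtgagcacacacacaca
Ctnna2, bait 15, chr6:77737108, minus strand: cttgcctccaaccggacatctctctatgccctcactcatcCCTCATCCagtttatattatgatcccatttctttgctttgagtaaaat
Ctnna2, bait 12, chr6:77206060, minus strand, direct: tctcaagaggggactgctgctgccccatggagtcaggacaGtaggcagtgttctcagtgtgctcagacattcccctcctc
Ctnnd2, bait 7, chr15:30530498, minus strand: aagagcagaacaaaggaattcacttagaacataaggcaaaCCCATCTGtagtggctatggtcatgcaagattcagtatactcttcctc
Ctnnd2, bait 12, chr15:30658822, plus strand: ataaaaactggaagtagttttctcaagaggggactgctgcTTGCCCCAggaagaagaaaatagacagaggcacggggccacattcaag
Ctnnd2, bait 15, chr15:30247250, minus strand: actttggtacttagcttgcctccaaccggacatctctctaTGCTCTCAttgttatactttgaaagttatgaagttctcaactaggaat
Ctnnd2, bait 12, chr15:30753874, plus strand, direct: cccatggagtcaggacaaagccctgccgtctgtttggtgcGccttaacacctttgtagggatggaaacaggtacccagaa

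The tables of NPC line 2 with bait 15 did not stand as separate libraries. A joint was called exact when prey position, strand, bait end and overlap were all the same. Of the distinct exact joints of the pool labelled NPC line 2 bait 15 APH, 62.2% were also in NPC line 1 bait 15 APH and 13.9% in NPC line 1 bait 15 DMSO. Of those of the pool labelled NPC line 2 bait 15 DMSO, 48.7% were in line 1 APH and 25.6% in line 1 DMSO. Over the other 71 pairs of pools with 1 bait, the shared part of the smaller pool had a median of 0.395% and a maximum of 16.3%, and it was above 5% in 7 pairs.

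The sharing crossed the treatment labels. The line 2 APH table held 79.8% of the joints of line 1 APH experiment B and 82.7% of those of D, but also 64.0% and 66.5% of those of line 1 DMSO experiments A and D. Line 2 DMSO experiments A and D held 73.7% and 69.8% of the joints of line 1 APH experiments A and C. Line 2 DMSO experiments B and C held 63.1% and 68.4% of those of the line 1 DMSO experiments of the same letter. The sharing itself does not say which label of a crossed experiment is right.

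**Figure D1:**
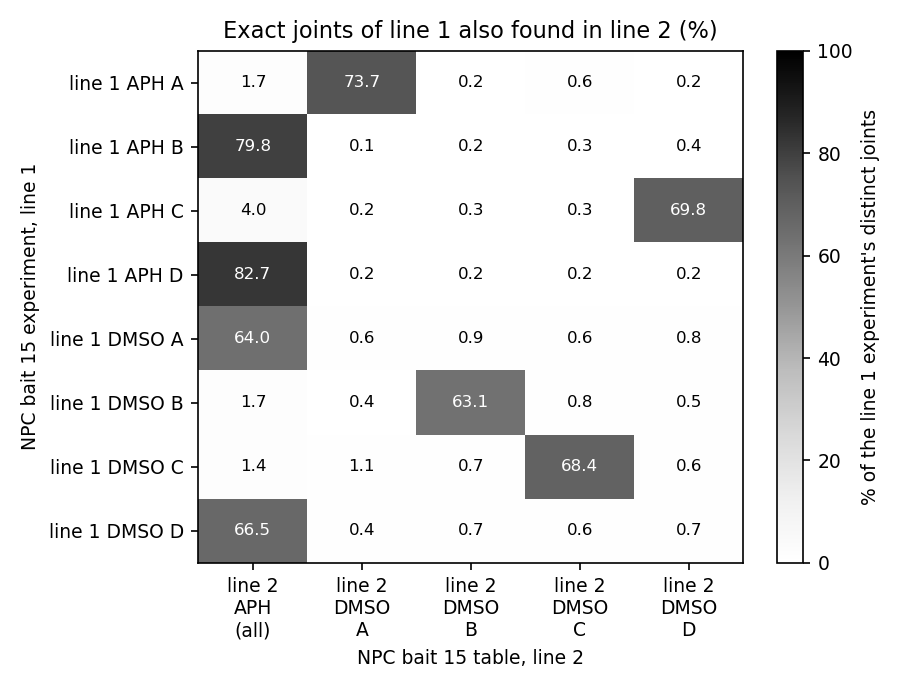
Percent of the distinct exact joints of each NPC line 1 bait 15 experiment (vertical axis) that were also found in the NPC line 2 bait 15 tables (horizontal axis; the line 2 APH table is shown whole because its letters do not match the labels). Each line 1 experiment shares 63.1% to 82.7% of its joints with 1 line 2 table or experiment, and 4 of the 8 do so under the other treatment label.

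Both regions show the same crossing. Of the 113 Ctnna2 and 240 Ctnnd2 junctions of the line 2 bait 15 APH pool, 82.3% and 85.4% recurred as exact joints in a line 1 bait 15 pool. Of the 110 and 226 of the DMSO pool, 83.6% and 77.0% did. In the line 2 DMSO table, experiments A and D had Ctnna2 shares of 0.332% and 0.200% and Ctnnd2 shares of 0.676% and 0.449%. Experiments B and C had 0.0321% and 0.0828% for Ctnna2 and 0.0534% and 0.110% for Ctnnd2. For the line 1 APH experiments A and C, whose joints A and D carry, the shares were 0.382% and 0.193% for Ctnna2 and 0.675% and 0.424% for Ctnnd2. The line 2 bait 15 pools were therefore not counted again: values below rest on 22 pools (6 for each ESC condition, 5 for each NPC condition), and those from all 24 are given where they differ. The 22 pools held 673 Ctnna2 and 732 Ctnnd2 junctions, with 642 and 687 distinct joints, of which 9 and 17 were in 2 or more pools.

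Outside the bait zone the ESC pools held 4700 to 12931 junctions and the 10 NPC pools 12521 to 88541. Counting error is therefore largest in ESC. Intervals below are 95% Clopper-Pearson intervals, which cover counting error only: the reads carry no molecular identifiers and may count 1 molecule more than 1 time.

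Ctnna2 was broken most often in NPC under APH. In NPC under DMSO its share was 0.0550% (line 1) and 0.0472% (line 2) with bait 7, 0.0674% and 0.0639% with bait 12, and 0.0579% with bait 15 of line 1. Under APH these became 0.322%, 0.257%, 0.282%, 0.294% and 0.238%. The 5 APH pools all lie above the 5 DMSO pools, and the means were 0.279% ± 0.0326 (SD, n = 5) and 0.0583% ± 0.00789 (SD, n = 5), a ratio of 4.78. Such separation of groups, here and below, describes regions chosen on these counts. The share of other bins that separate likewise was not counted.

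In ESC, Ctnna2 was low under either treatment. Under DMSO its share was 0% and 0.0707% with bait 7, 0.0210% and 0.0232% with bait 12, and 0.0504% and 0.0654% with bait 15, each for lines 1 and 2. The pool without a junction had 0 of 4700, and its Clopper-Pearson interval allows a share of up to 0.0785%. Under APH the values were 0.115% and 0.0468%, 0.106% and 0.0547%, and 0.0966% and 0.154%.

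The ESC treatments overlapped for Ctnna2: the share was higher under APH in 5 of 6 line and bait pairs and lower in line 2 with bait 7. The means were 0.0955% ± 0.0399 (SD, n = 6) under APH and 0.0385% ± 0.0280 (SD, n = 6) under DMSO. Every NPC APH pool lay above every ESC APH pool, with a ratio of means of 3.33 over the 5 line and bait pairs. Under DMSO, NPC lay above ESC in 4 of 5 pairs and the groups overlapped.

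Ctnnd2 lies on the chromosome of bait 15, and its level is given first for baits 7 and 12, which lie on other chromosomes. In NPC under DMSO, Ctnnd2 took 0.0138% (line 1) and 0.0189% (line 2) with bait 7, and 0.0421% and 0.0399% with bait 12. Under APH it took 0.0893% and 0.147%, and 0.138% and 0.0919%. The 4 APH pools all lay above the 4 DMSO pools, with a ratio of means of 4.06 (0.116% ± 0.0301 and 0.0287% ± 0.0145, SD, n = 4 each).

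In ESC with baits 7 and 12, the Ctnnd2 counts were few. Under DMSO the 4 pools had 1, 0, 1 and 3 junctions and at most 0.0232%. The pool of line 2 with bait 7 had 0 of 5654, and its Clopper-Pearson interval allows up to 0.0652%. Under APH the shares were 0.115% and 0.0468% with bait 7 and 0.0236% and 0.0766% with bait 12. APH was higher in 4 of 4 pairs, and the APH mean of 0.0655% ± 0.0394 (SD, n = 4) compared with a DMSO mean of 0.0164% ± 0.0110 (SD, n = 4). NPC and ESC overlapped under APH: NPC was higher in 3 of 4 pairs, with a ratio of means of 1.78.

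With bait 15, Ctnnd2 took more of the junctions in each condition. In ESC it held 0.113% (line 1) and 0.0818% (line 2) under DMSO and 0.348% and 0.463% under APH. In NPC line 1 it held 0.0938% under DMSO and 0.482% under APH, from 34 and 427 junctions. The ESC and NPC values of line 1 under APH were 0.348% (95% interval 0.244 to 0.481) and 0.482% (0.438 to 0.530), so their intervals overlapped. Under DMSO the value of NPC line 1 lay between those of the ESC lines.

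**Figure D2:**
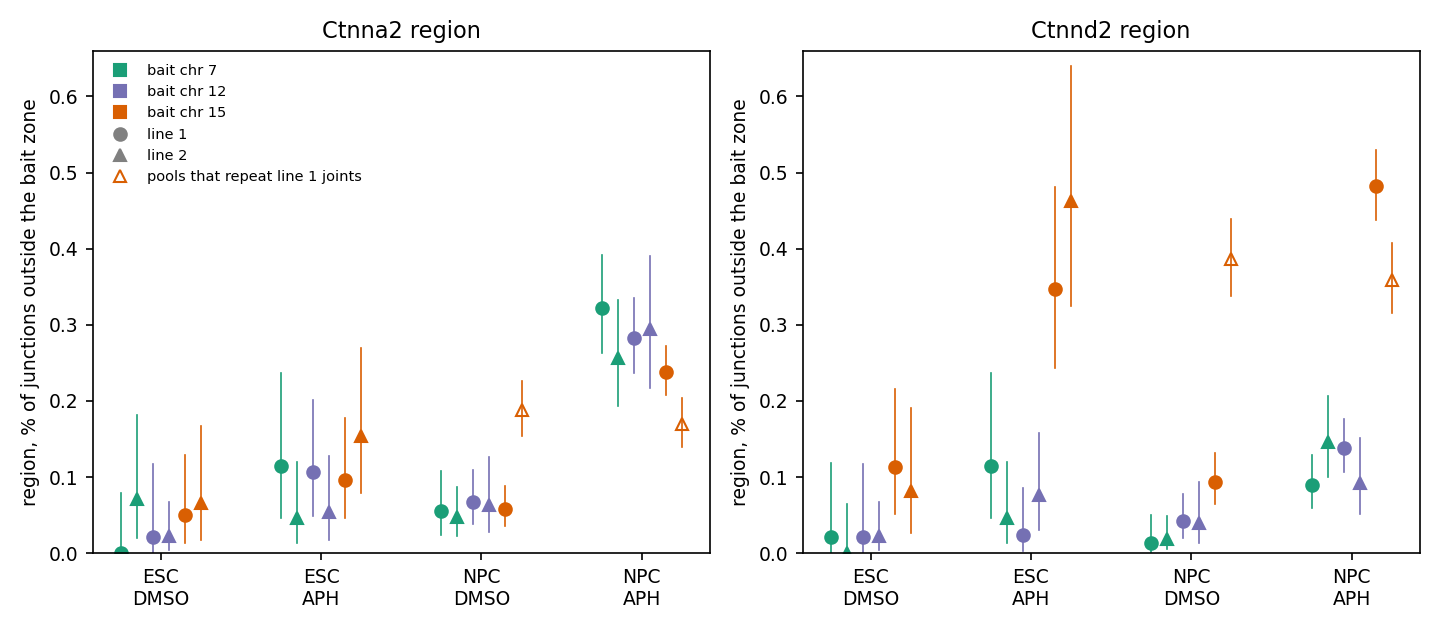
Share of junctions outside the bait zone that fell in the Ctnna2 region (left) and the Ctnnd2 region (right), for each of the 24 pools by cell type and treatment; colour gives the bait chromosome, the marker gives the line, bars are 95% Clopper-Pearson intervals of counting error, and open triangles are the 2 pools that repeat joints of line 1. For Ctnna2 the 5 filled NPC APH pools sit between 0.238% and 0.322%, above the other filled pools; for Ctnnd2 the filled bait 15 pools under APH sit between 0.348% and 0.482%, above those of baits 7 and 12.

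The same levels were placed beside the rest of the genome with edgeR's quasi-likelihood test over 802 features, the 2 regions and 500 kb bins. In NPC the log2 fold of APH over DMSO was 2.19 ± 0.35 (SE) for Ctnna2 and 2.10 ± 0.39 (SE) for Ctnnd2, and 2 of 2 regions passed an adjusted p of 0.05, as did 10.7% of all features in the higher direction. In ESC the folds were 1.26 ± 0.51 (SE) and 1.95 ± 0.49 (SE), and 1 of 2 (Ctnnd2) passed beside 2.37% of features. These shares describe how often any feature was called and are not a test of the regions, which were chosen on this contrast. Without the block for line and bait 0 of 2 regions passed in either cell type, beside 1 of 802 features called higher in NPC and 3 of 802 in ESC. In ESC, Ctnnd2 also did not pass without line 2 bait 15 (log2 fold 1.70 ± 0.58, SE, beside 15 of 917 features). With baits 7 and 12 only it did not pass either (1.89 ± 0.75, SE, beside 12 of 981). Its fold was 2.82 ± 0.58 (SE) when joints found in 2 or more pools were left out.

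For NPC over ESC under APH the log2 fold was 2.10 ± 0.43 (SE) for Ctnna2 and 1.03 ± 0.43 (SE) for Ctnnd2. Of the 2 regions, 1 (Ctnna2) passed beside 13.2% of features. The 2 regions passed with DESeq2 (113 of 802 features called higher), with 250 kb bins (98 of 369) and with each position counted once per pool (105 of 407). They also passed with baits 7 and 12 only (102 of 981) and without line 1 bait 7 (113 of 891). Without the line and bait block 0 of 2 passed, beside 44 of 802. Under DMSO the folds were 1.15 ± 0.55 (SE) and 0.84 ± 0.59 (SE), and 0 of 2 passed beside 1.12%. With all 24 pools, the APH folds in NPC were 1.76 ± 0.37 (SE) for Ctnna2 and 1.60 ± 0.40 (SE) for Ctnnd2, and 7.84% of features were called higher. With no NPC bait 15 pool at all they were 2.25 ± 0.39 (SE) and 2.00 ± 0.44 (SE), and with only the line 1 bait 15 experiments whose treatment label was the same in both tables, 2.12 ± 0.36 (SE) and 2.19 ± 0.40 (SE).

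The bait and the line were not the contrasts on which the regions were chosen, and both were tested. The counts behind the choice nevertheless included bait 15, which gave 427 of the 566 Ctnnd2 junctions in NPC under APH. The bait 15 test of Ctnnd2 is thus not independent of the choice. Ctnnd2 was higher with bait 15 than with baits 7 and 12, by 2.38 ± 0.38 (SE) on the log2 scale (edgeR quasi-likelihood test, adjusted p = 9.04e-09), beside 14.7% of all features called higher. That background rested largely on line 1 with bait 15: without it 3.60% of features were called higher, and the Ctnnd2 fold was 3.01 ± 0.66 (SE, edgeR adjusted p = 0.00079). The other bins of chromosome 15 were higher too: 72 of 76, or 94.7%, were called, with a median log2 fold of 2.19, and 31 of the 76 exceeded Ctnnd2. Ctnna2, on a chromosome with no bait, had a log2 fold of 0.44 ± 0.40 (SE, edgeR adjusted p = 0.444). Leaving out 1 line and bait in turn gave Ctnna2 folds from 0.09 (without line 2 bait 15) to 1.499 ± 0.71 (SE, without line 1 bait 15, edgeR adjusted p = 0.23), and none passed.

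Between baits 7 and 12, the log2 fold was -0.18 ± 0.39 (SE) for Ctnna2 and -0.42 ± 0.44 (SE) for Ctnnd2 (edgeR adjusted p = 0.789 and 0.521), while 44.5% of features were called in either direction. That share was 24.8% without line 1 bait 7 and 25.9% without line 1 bait 12. Line 2 against line 1 gave -0.03 ± 0.49 (SE) for Ctnna2 and -0.03 ± 0.46 (SE) for Ctnnd2 in ESC, and -0.23 ± 0.38 (SE) and -0.02 ± 0.45 (SE) in NPC. None of these 4 passed (edgeR adjusted p = 0.998 in ESC and 0.999 in NPC), and 0 of 802 features were called in either cell type by edgeR or by DESeq2. At an unadjusted p under 0.05, edgeR had 37 features in ESC and 15 in NPC.

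Within chromosome 15, the part of the junctions that fell in Ctnnd2 was compared between baits. For this count the 5 Mb around the chromosome 15 break were left out in every pool. Chromosome 15 then held 10.2% to 13.6% of the junctions of the bait 15 pools and 2.502% to 3.49% of those of baits 7 and 12. Under APH, Ctnnd2 made up 2.78% and 3.41% of the chromosome 15 junctions of the ESC bait 15 pools and 3.86% of those of the NPC bait 15 pool. With baits 7 and 12 the corresponding share was 0.699% to 3.95% in ESC and 3.02% to 5.86% in NPC. Under DMSO with bait 15 it was 0.933% and 0.692% in ESC and 0.918% in NPC. With baits 7 and 12 it was 0% to 0.680% in ESC, below either bait 15 pool, and 0.458% to 1.32% in NPC.

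Over the 6 strata of cell type, line and treatment with all 3 baits, the Ctnnd2 share of chromosome 15 was 2.10% with bait 15 and 1.68% with baits 7 and 12. The difference of 0.421 percentage points (SD over strata 0.536) was positive in 5 of 6 strata and did not pass an exact permutation test (two-sided, p = 0.353; the smallest p that 729 arrangements allow is 0.00137). With all 24 pools the difference was 0.429 points (exact permutation p = 0.351). Leaving out ESC line 2 APH lowered the difference to 0.216 points.

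**Figure D3:**
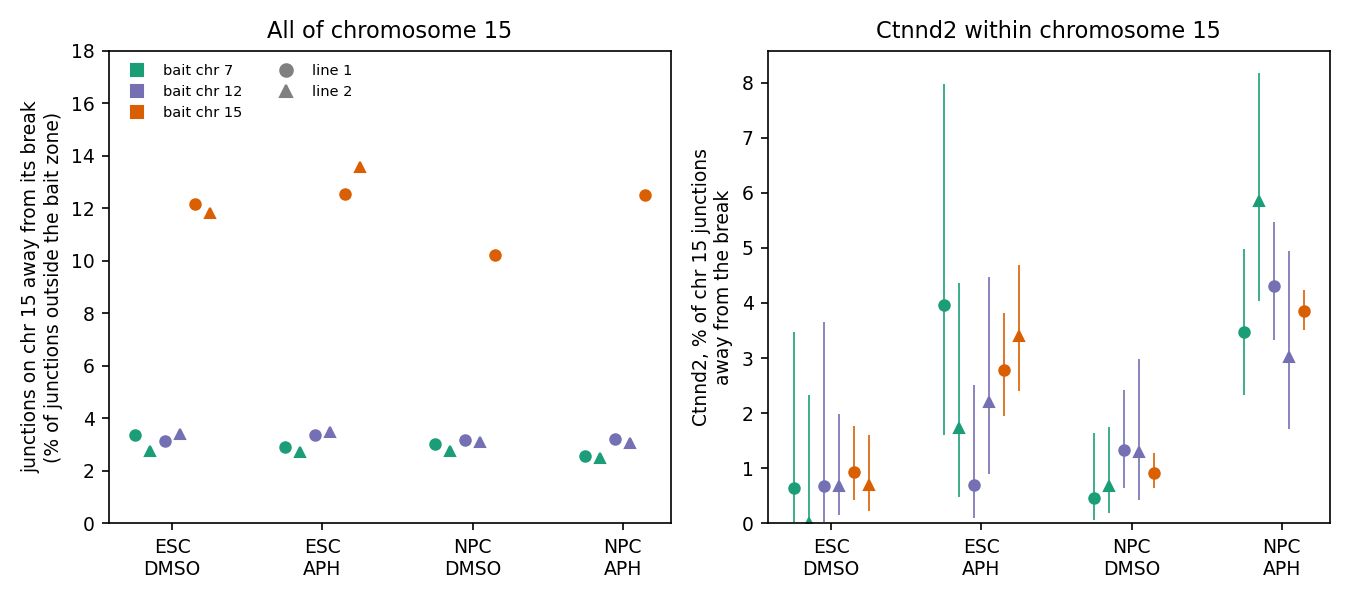
Left, junctions on chromosome 15 more than 5 Mb from its bait break as a share of all junctions outside the bait zone; right, Ctnnd2 junctions as a share of those chromosome 15 junctions with 95% Clopper-Pearson intervals; each point is 1 of the 22 pools, coloured by bait and shaped by line. The bait 15 pools stand at 10.2% to 13.6% on the left, against 2.502% to 3.49% for the others. On the right they lie among the pools of baits 7 and 12 of the same condition, except in ESC under DMSO. There the bait 15 pools (0.692% and 0.933%) lie above the others (at most 0.680%).

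Single experiments scattered more, and those of 1 pool were not always separate readings. Experiments of 1 ESC pool shared up to 51.0% of the exact joints of the smaller (ESC line 2 bait 12 DMSO, C and D), and 22 of 82 ESC pairs shared over 5%, against 1 of 57 NPC pairs. All 10907 reads listed for experiment B of NPC line 2 bait 12 APH were also listed for A and were counted there, so that 19 of the 20 NPC APH experiments are left. Likewise 7702 of the 13957 reads of experiment C of ESC line 1 bait 7 APH were counted under A and D.

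In NPC under APH each of the 19 experiments had a junction in Ctnna2 (0.161% to 0.462%, median 0.243%). For Ctnnd2 the 15 of baits 7 and 12 held 0.0284% to 0.241% (median 0.141%) and the 4 of bait 15 held 0.416% to 0.675% (median 0.448%), with no overlap. In NPC under DMSO, 2 of 20 had none in Ctnna2 (median 0.0469%), and for Ctnnd2 4 of the 16 of baits 7 and 12 (median 0.0256%) and none of the 4 of bait 15 (median 0.0968%) lacked a junction.

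In ESC under APH, 6 of 28 experiments had no Ctnna2 junction (median 0.0903%). For Ctnnd2 this was so in 8 of the 20 of baits 7 and 12 (median 0.0443%) and in 0 of the 8 of bait 15 (median 0.374%). Of the 16 ESC experiments under DMSO with a usable letter, 7 had none in Ctnna2. For Ctnnd2, 5 of 8 had none with bait 12 and 5 of 8 with bait 15. No ESC DMSO experiment with bait 7 had a usable letter.

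Under APH the regions were denser than the 1 Mb stretches beside them. The borders are bin edges of regions chosen on these counts, so they do not place the ends of the excess. In Ctnna2 the first 500 kb held 35 of the 547 junctions of NPC under APH. Per Mb and per 100000 junctions outside the bait zone, Ctnna2 held 178 in NPC under APH, and the 1 Mb stretches to its left and right held 15.7 each. Under DMSO the Ctnna2 value was 38.8, with 27.7 on the left and 14.8 on the right. Ctnnd2 held 277 under APH against 35.7 on the left and 53.3 on the right, and 50.8 under DMSO against 24.01 and 54.5. The higher value on the right of Ctnnd2 was there under DMSO as well. All these densities sum the baits, and the flanks were not counted by bait. Of the Ctnnd2 junctions in NPC under APH, 427 came from bait 15 and 139 from baits 7 and 12. Their shares, summed over pools, were 0.482% and 0.120%. The Ctnnd2 density is therefore not comparable with that of Ctnna2, which lies on no bait chromosome.

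Inside the regions, junctions were spread widely and few positions were hit repeatedly. In NPC under APH the middle 80% of Ctnna2 junctions covered 528 kb around a median of 77363293, and those of Ctnnd2 covered 655 kb around 30552240. Of the positions (with strand) hit in the 22 pools, 93.6% of 627 in Ctnna2 and 92.4% of 675 in Ctnnd2 were seen once. One position reached 5 reads, chr15:30852456 on the minus strand, in the bait 15 pools of ESC line 2 and NPC line 1 under APH. No Ctnna2 position had more than 4 reads.

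The busiest 50 kb windows lay in the middle of each region. For Ctnna2 they were chr6:77400001-77450000 with 61 junctions, chr6:77350001-77400000 with 57 and chr6:77250001-77300000 with 54. For Ctnnd2 they were chr15:30550001-30600000 with 65, and chr15:30400001-30450000 and chr15:30450001-30500000 with 62 each. The 500 kb bins of Ctnna2 held 56, 424 and 193 junctions from left to right, and those of Ctnnd2 held 323 and 409.

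The Ctnna2 junctions of ESC under APH lay further to the right than those of NPC. The last 500 kb, chr6:77500001-78000000, held 30 of 47 ESC junctions, or 63.8% (95% interval 48.5 to 77.3), and 137 of 547 NPC junctions, or 25.05% (21.5 to 28.9). In the 5 NPC pools the share was 22.9% to 32.1%. In the 6 ESC pools it was 30.0% to 100%, from 4 to 12 junctions each, so that all but 1 ESC pool (line 1 with bait 15, 3 of 10) lay above every NPC pool. Repeated reads weigh on this: the ESC pools at 100%, line 2 with bait 7 and with bait 12, held 4 and 5 reads at 2 distinct positions each. Counting each position and strand once per pool left 21 of 36 in ESC, or 58.3%, and 134 of 525 in NPC, or 25.5%. This measure was chosen after the positions were seen and carries no test.

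Medians by pool could be compared in few pairs, since 10 junctions in either pool were required. For Ctnna2 the NPC APH median was 9.20, 218 and 76.0 kb to the right of the NPC DMSO median in 3 pairs, and 47.0 kb to the left of the ESC APH median in line 1 with bait 15. For Ctnnd2 it was 148 and 73.2 kb to the right of NPC DMSO in 2 pairs and 49.9 kb to the right of ESC APH in line 1 with bait 15. With fewer than 5 pairs none of these was tested.

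In NPC under APH the strands split along each region: the plus-strand share was lower at lower coordinates than at higher ones. The strand is the one to which the prey part of the read aligned. Along Ctnna2 in steps of 250 kb, 31.3%, 21.1%, 22.7%, 44.03%, 72.5% and 71.4% of junctions were on the plus strand. Along Ctnnd2 the steps gave 36.4%, 45.3%, 74.0% and 84.8%. The order was the same for both regions, and the genes are listed on opposite strands. Whether the order relates to the direction of the genes was not tested.

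The first and last well-filled steps were apart by more than their counting intervals. In Ctnna2 the step from 500 to 750 kb had 30 of 132 on the plus strand (15.9 to 30.8%) and that from 1000 to 1250 kb had 79 of 109 (63.1 to 80.6%). In Ctnnd2 the first step had 28 of 77 (25.7 to 48.1%) and the last 112 of 132 (77.6 to 90.5%).

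The direction of the split was the same in each NPC APH pool, as measured by the median positions of the strands. For Ctnna2 the plus-strand median lay to the right of the minus-strand median by 208 kb (line 1) and 182 kb (line 2) with bait 7, by 165 and 124 kb with bait 12, and by 189 kb with bait 15 of line 1. The mean was 174 kb ± 31.6 (SD, n = 5; exact sign-flip test, two-sided, p = 0.0625, which is the smallest p that 5 pools allow, adjusted p = 0.0625 over 2 tests). For Ctnnd2 the offsets were 288 and 424 kb with bait 7, 254 and 53.5 kb with bait 12 and 199 kb with bait 15 of line 1. That of 53.5 kb rested on only 8 plus-strand and 7 minus-strand junctions. The mean was 244 kb ± 135 (SD, n = 5; exact sign-flip p = 0.0625, adjusted p = 0.0625). The offset was positive in 5 of 5 pools for either region, and a design of 5 pools cannot reach 0.05. With all 24 pools the means were 166 and 248 kb (exact sign-flip adjusted p = 0.0312 for either), where the added pool repeats joints.

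Outside NPC under APH the offset was less regular. Pools of any condition with 5 junctions on each strand numbered 9 for Ctnna2, with offsets from -255 to 276 kb, 7 of 9 above 0 and a mean of 107 kb ± 165 (SD; exact sign-flip adjusted p = 0.0859). For Ctnnd2 there were 8, from -109 to 424 kb, 6 of 8 above 0 and a mean of 174 kb ± 181 (SD; exact sign-flip adjusted p = 0.0859). The negative ones were Ctnna2 in ESC line 2 bait 15 APH (-71.1 kb) and NPC line 1 bait 15 DMSO (-255 kb), and Ctnnd2 in the ESC bait 15 APH pools of line 1 (-15.5 kb) and line 2 (-109 kb), from 6 to 19 junctions per strand. This pooling of conditions was chosen after the values were seen. Whether the offset differs between ESC and NPC was not tested.

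**Figure D4:**
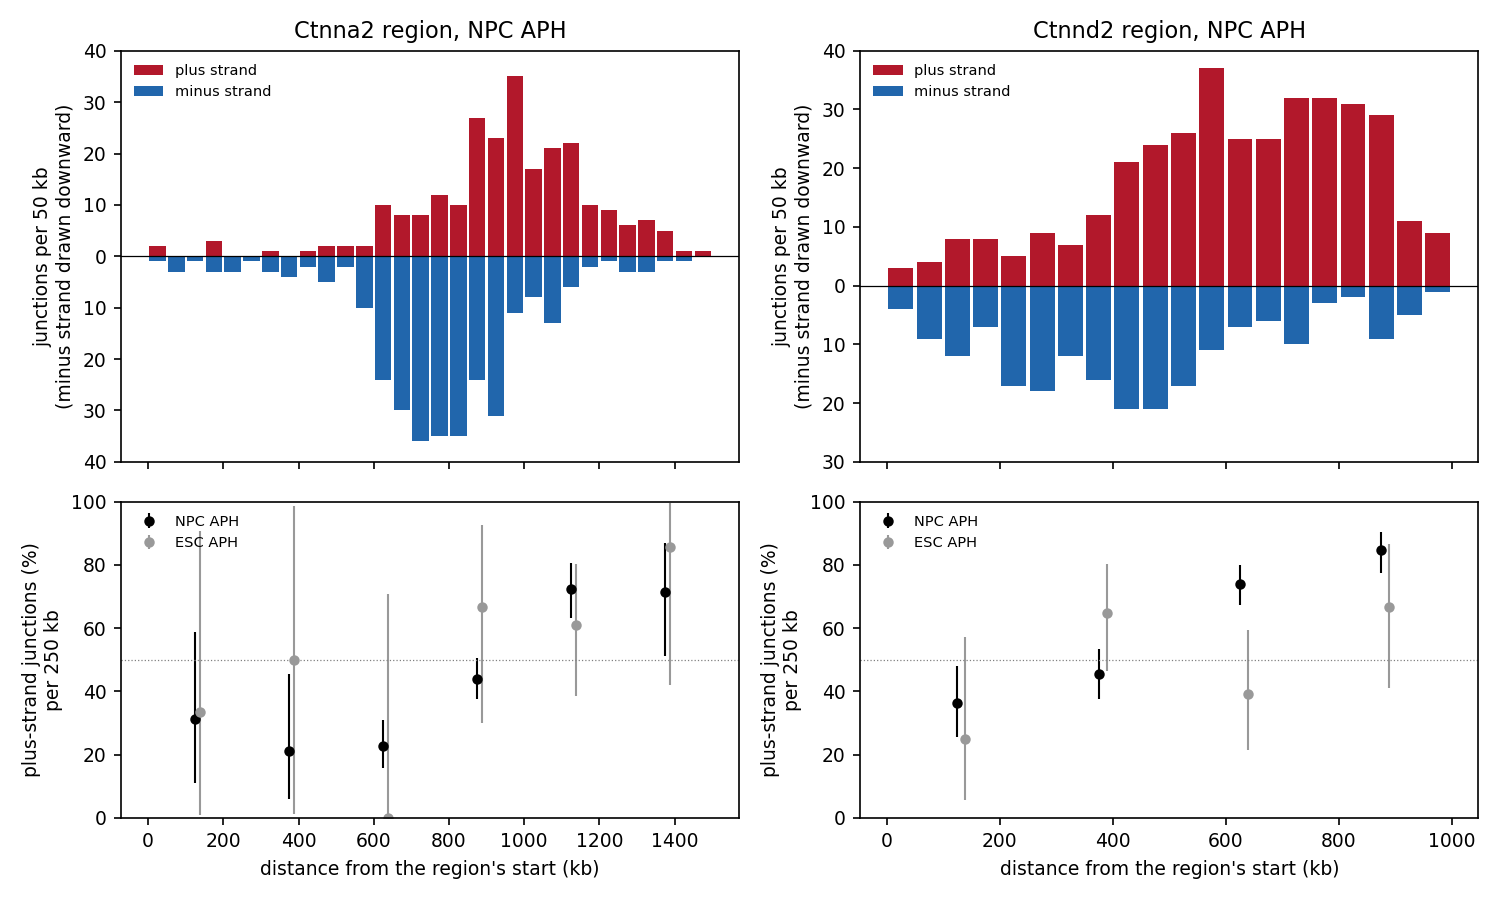
Top, junctions per 50 kb along each region in NPC under APH, summed over 5 pools, with plus-strand counts drawn upward and minus-strand counts downward; bottom, percent of junctions on the plus strand per 250 kb in NPC (black) and ESC (grey) under APH with 95% Clopper-Pearson intervals, against the distance from the region's start in kb. In NPC the plus share climbs from 22.7% at 500 to 750 kb to 72.5% at 1000 to 1250 kb in Ctnna2 and from 36.4% to 84.8% in Ctnnd2; the ESC intervals are wide.

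Other stretches of the genome gave a scale for this split. Among the pairs made of 1 plus-strand and 1 minus-strand junction in NPC under APH, the plus-strand member lay to the right in 73.4% for Ctnna2 and 72.5% for Ctnnd2. Stretches of the same length on chromosomes without a bait, with at least 100 junctions, had a median of 51.1% over 593 stretches of 1500 kb and 53.6% over 330 stretches of 1000 kb. Of these, 3 exceeded Ctnna2 and 9 exceeded Ctnnd2. In the offset of medians itself, 78 of 593 and 21 of 330 stretches exceeded the regions' 181 and 207 kb. This is a description of these libraries and no test.

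The plus-strand share of the whole region differed less. For Ctnna2 in NPC under APH it was 39.6% to 53.6% by pool, and the difference from the other junctions of the same pool was -3.34 points on average ± 6.88 (SD, n = 5; exact sign-flip adjusted p = 0.375 over 2 tests, higher in 2 of 5 pools). For Ctnnd2 it was 53.3% to 65.6%, higher by 8.78 points ± 5.41 (SD, n = 5; exact sign-flip p = 0.0625, adjusted p = 0.125, higher in 5 of 5 pools). With bait 15 in NPC line 1 under APH, 65.6% of 427 Ctnnd2 junctions were on the plus strand (95% interval 60.9 to 70.1), beside 53.9% of the 10633 other junctions on chromosome 15 in that pool. Under DMSO the same pool pair gave 44.1% of 34 (27.2 to 62.1) beside 51.2%.

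The structure of the joints was compared with that of all other joints. In NPC under APH, an overlap of 2 or more bases was found in 63.6% of 547 Ctnna2 and 63.4% of 566 Ctnnd2 joints, against 65.1% of all other joints. Direct joints made up 8.41%, 6.18% and 6.70%, and joints with inserted bases 15.5%, 18.6% and 17.5%. By pool, the overlap share differed from that of other junctions by -1.07 points ± 3.93 (SD, n = 5) for Ctnna2 and -0.37 points ± 5.79 (SD, n = 5) for Ctnnd2. The exact sign-flip tests of the 3 classes had adjusted p = 0.675 to 0.75 over 6 tests.

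The overlap result moved with the length required. For overlaps of 4 or more bases the difference was -4.09 points ± 1.93 (SD, n = 5) for Ctnna2 and -6.96 points ± 4.93 (SD, n = 5) for Ctnnd2. Both regions were below the other joints in 5 of 5 pools (exact sign-flip p = 0.0625, the smallest that 5 pools allow, adjusted p = 0.188 over 6 tests). For overlaps of 1 or more bases it was 1.10 points ± 5.63 (SD, n = 5) for Ctnna2 and -2.31 points ± 3.76 (SD, n = 5) for Ctnnd2 (exact sign-flip adjusted p = 0.562 for either).

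In ESC under APH, joints with inserted bases were more frequent both in the regions and outside them. They made up 36.2% of 47 Ctnna2, 33.7% of 92 Ctnnd2 and 29.3% of all other joints. Overlaps of 2 or more bases made up 24 of 47 Ctnna2 joints (51.1%), 46 of 92 Ctnnd2 joints and 54.1% of all others.

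Other 500 kb bins moved with the regions across pools. For Ctnna2, over 22 pools and 423 bins on chromosomes without a bait, the highest Pearson correlations of log2 CPM were with chr19:31000001-31500000 (r = 0.892), chr18:25000001-25500000 (r = 0.879), chr8:121000001-121500000 (r = 0.875), chr1:62000001-62500000 (r = 0.871) and chr10:31500001-32000000 (r = 0.858). For Ctnnd2, over the 16 pools of baits 7 and 12 and 563 bins, they were with chr10:49000001-49500000 (r = 0.889), chr5:81500001-82000000 (r = 0.876), chr16:67000001-67500000 (r = 0.825), chr17:11500001-12000000 (r = 0.825) and chr3:24000001-24500000 (r = 0.817). The median r over all bins compared was 0.288 and 0.271. The pools share the APH and cell type contrasts on which the regions were chosen, so these are a description and carry no p.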

How the data were processed

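Per the file headers, a row of a deposited table is 1 junction read, and the values used here are counts of such rows with no normalization. Alignment coordinates and strands are other columns of the deposited tables. Libraries were made by LAM-PCR, per the labels' protocols. Bowtie2 and mm9 are named in the submitters' processing notes; versions and the junction caller were not given in the sources used here. Members and lists were chosen with earlier results of these data known.

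Read names listed more than 1 time in a table entered 1 time, under the experiment listed first. Bait breaks were placed at the most frequent bait end, and junctions within 5 Mb of the own break were left out. In 21 tables experiment letters matched the labels; the other 3 were used as pools only. The tests had been laid out on 24 pools. The NPC line 2 bait 15 pools were left out after their exact joints were found to be those of line 1, and all 24 were kept as an added alternative.

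Features were the 2 regions and 500 kb bins at least 5 Mb from any bait break, filtered by filterByExpr (4 groups, minimum count 5), with TMM scaling, and tested by edgeR 4.0.16 (glmQLFit, glmQLFTest; R 4.3.3) with Benjamini-Hochberg adjustment at 0.05. The models were 12 blocks (cell type, line and bait combined) with an APH term per cell type; 6 line and bait blocks for NPC against ESC; strata of cell type, line and treatment with bait; and, for the lines, strata of cell type, bait and treatment. The SE is the log2 fold divided by the square root of F. The DESeq2 1.42.0 alternative used its size factors. Pools of 1 line and bait share a cell line and a break. Pool values were tested by exact sign-flip or permutation tests (Python 3.11.15, scipy 1.17.1 for intervals), two-sided, with at least 10 junctions per region and pool (5 per strand) and 5 pools. The fits and tests were tested on simulated data. The rule for named windows, bins and reads was: the 3 busiest 50 kb windows, the 5 most correlated bins, positions with 5 or more reads, and the longest overlap up to 8 bases per bait (ties by read name), with 1 direct joint per region. No mm9 annotation was used, so other catenin genes were not placed.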

Additional observations from a re-analysis of the deposited data

Results flagged for a closer look

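In a group of 4 to 10 values, the highest or lowest was singled out when its gap to the nearest other value, divided by the whole range, exceeded Dixon's 95% critical value. Of 58 groups looked at, 9 had such a value. A chance rate of about 1 in 20 would hold only for independent and normally distributed values. Many of these shares rest on few or no junctions, and groups share pools. The count of 9 is therefore no measure of an excess over chance.

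Among pools, Ctnnd2 in ESC line 2 with bait 7 under DMSO had a share of 0%, apart from the other 3 pools of baits 7 and 12, where 1 or 3 junctions were found. Ctnnd2 in NPC line 1 with bait 15 under APH had 0.482%, apart from the 4 pools of baits 7 and 12; this is the pool whose bait lies on the chromosome of Ctnnd2. With all 24 pools, NPC line 2 with bait 15 under DMSO stood apart with 0.188% for Ctnna2 and 0.386% for Ctnnd2; 48.7% of its distinct joints were those of NPC line 1 bait 15 under APH.

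Among single experiments, ESC line 1 bait 12 DMSO D held 0.109% in Ctnna2 and 0.109% in Ctnnd2, and the other 3 experiments of that pool had no junction in either region. For Ctnna2, NPC line 1 bait 12 APH A held 0.381% and NPC line 2 bait 12 DMSO C held 0.166%, each above the rest of its pool. For Ctnnd2, ESC line 2 bait 15 DMSO A held 0.200%, and the other 3 experiments had none; it shared 26.5% of its distinct joints with NPC line 1 bait 15 APH D. Whether these shared joints bear on the high values was not tested.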

How the results depend on the processing

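Over the alternatives, 388 values stayed on their side of the threshold, 13 passed it only under the alternative and 6 no longer passed. The cause was not tested. These counts do not measure how stable the results are. The exact sign-flip tests in NPC under APH had 5 pools and a smallest p of 0.0625, above the threshold. No alternative with 5 pools could make them pass. The counts also include folds of APH over DMSO and of NPC over ESC, contrasts on which the regions were chosen. With all 24 pools the strand offsets in NPC under APH passed (166 kb for Ctnna2, 248 kb for Ctnnd2), as did the offsets over any condition (117 and 183 kb) and the Ctnnd2 plus-strand share over any condition (6.56 points); a sixth pool lowers the smallest p that a sign-flip test can give. The Ctnnd2 offset over any condition passed with means (170.0 kb), with the region widened by 250 kb (282 kb) and without joints found in 2 or more pools (200.2 kb). The Ctnnd2 log2 fold of NPC over ESC under APH passed with DESeq2 (1.25), 250 kb bins (1.57), each position once (1.23) and baits 7 and 12 only (1.37). The counts of features called beside these are given above. The Ctnnd2 fold of APH in ESC did not pass with baits 7 and 12 only (1.89).

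Leaving out 1 line and bait in turn, the log2 fold of APH in NPC was 2.23 to 2.32 for Ctnna2 and 2.03 to 2.32 for Ctnnd2, and in ESC 1.04 to 1.55 and 1.70 to 2.21 (Ctnnd2 not called without line 2 bait 15). NPC over ESC under APH was 2.06 to 2.32 for Ctnna2 and 0.92 to 1.40 for Ctnnd2 (called without line 1 bait 7). Bait 15 over the others was 2.21 to 3.01 for Ctnnd2 and 0.09 to 1.499 for Ctnna2. Bait 7 over 12 was -0.71 to 0.11 for Ctnna2 and -0.90 to -0.20 for Ctnnd2. Line 2 over 1 was -0.50 to 0.31 and -0.43 to 0.35 in ESC, and -0.31 to -0.11 and -0.55 to 0.62 in NPC. The Ctnnd2 difference in share of chromosome 15 was 0.216 to 0.511 points.

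Experiment letters did not pair the samples: over 35 pairs of same-lettered experiments the deviations correlated at -0.40 to 0.32 (median -0.0081), with 10 above 0.1. With the letter as a replicate block, the log2 fold of APH in NPC was 1.91 ± 0.27 (SE) for Ctnna2 and 1.89 ± 0.30 (SE) for Ctnnd2, with 14 of 38 features called, and without it 1.91 ± 0.24 (SE) and 1.89 ± 0.28 (SE), with 20 called. These fits treat experiments of 1 pool as separate readings, which the labels do not say. Their SEs are therefore not comparable with those over pools. With no line and bait block, no region was called in the APH and cell type contrasts (Ctnna2 2.21 and Ctnnd2 2.08 for APH in NPC, Ctnnd2 1.99 for APH in ESC, Ctnna2 1.88 for NPC over ESC under APH). Called features fell from 19 to 3 for APH in ESC, from 89 to 1 for APH in NPC, from 127 to 46 for NPC over ESC under APH and from 12 to 0 under DMSO.

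Leaving out 1 line and bait moved counts by over 1.5 times for bait 15 (238 to 36 without line 1 bait 15 and 138 without line 1 bait 7), bait 7 against 12 (357 to 221, 231 and 187 without line 1 bait 7, line 1 bait 12 and line 2 bait 12), APH in ESC (19 to 10 without line 2 bait 12) and NPC over ESC under DMSO (12 to 2, 5 and 19 without line 1 bait 7, line 2 bait 7 and line 2 bait 12). Under other settings such counts were 12 for APH in ESC with baits 7 and 12 only; for NPC over ESC under DMSO, 5 with DESeq2, 22 with each position once and 20 with all 24 pools; for bait 15, 377 with all 24 pools and 141 with no NPC bait 15 pool (238 otherwise); for bait 7 against 12, 226 of 369 with 250 kb bins (357 otherwise); and for the lines in ESC, 1 with 1 Mb bins, with baits 7 and 12 only or with all 24 pools. Depth limits the ESC values most, where the Clopper-Pearson interval of a pool without a junction allows a share of up to 0.0785%.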
